A study of Mus musculus with 3 samples.

Results

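The regions described here carried an H3K27ac peak in tibialis anterior (TA) muscle at 10 months and at 20 months, and none at 2 months. They were found by merging the autosomal peaks of all 3 ages wherever peaks overlapped or touched, which gave 51147 regions on chromosomes 1 to 19. Of these, 17304 regions (33.8%, exact 95% interval 33.4 to 34.2) were gained by 10 months and kept at 20 months, which makes this the commonest of the 7 patterns. Another 10526 regions had a peak at all ages, 12669 at 20 months only, 5388 at 10 months only, 3732 at 2 months only, 1317 at 2 and 20 months, and 211 at 2 and 10 months. The members were chosen by the presence or absence of a called peak at each age, so these numbers and the levels that follow from them are descriptions and were not tested.

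H3K27ac, the acetylation of lysine 27 on histone H3, is laid down by the acetyltransferases p300 and CBP and removed by histone deacetylases. It marks active promoters and active enhancers, the distal elements that raise transcription of genes at a distance, and it tells an active enhancer from a primed one that carries only other marks. In a whole muscle the mark is read from myofiber nuclei mixed with nuclei of the connective tissue, the vessels, blood-derived cells, and the muscle stem cells, known as satellite cells (SCs).

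The study asked how enhancer activity changes as muscle ages and whether the change reaches genes of the extracellular matrix (ECM). The groups were untreated C57/BL6 mice at 2 months, 10 months, and 20 months, with 1 library per age and the same antibody (Abcam ab4729). The labels call the tissue TA muscle, whereas their extraction text speaks of chromatin from activated SCs and of RNA, and neither the sex of the mice nor the number of animals behind a library is stated in the labels or methods. The mice were plain inbred animals with no transgene, and in whole muscle a higher peak cannot be told apart from a larger share of cells that carry it. The labelled tissue was not checked against muscle marker genes, because no mm9 positions of them were used here.

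The libraries differed in ways that bear on every region without a 2-month peak. The peak lists held 17884, 35221, and 44752 peaks at 2, 10, and 20 months, and the reads worked out from the lists came to 15.9, 18.9, and 26.3 M (1 M is 1e+06 reads). The genome mean, the coverage expected at an average position, was 1.26 reads in the youngest library, 2.24 in the middle one, and 2.504 in the oldest. The weakest called summit had 8 reads at 2 months, or 6.34 times the genome mean, while the later lists reached down to 4.46 and 3.99 times. The background used for a peak equalled the genome mean for 78.3% of the 2-month peaks, but for 2.87% at 10 months and 4.89% at 20 months. Backgrounds above the genome mean corresponded to whole reads per 10 kb, within 0.05 reads, at 100% of such later peaks but at 3.38% of such 2-month peaks. The background of the 2-month peaks was thus not formed in the same way. Whether another setting or a control library was used is not stated, and a missing 2-month peak rests on another calling rule than a missing later one. The 2-month list also stood apart on the sex chromosomes, with 76 peaks on chromosome Y against 1 at each later age. Levels that bear on these differences are given below, and the part they play in the number of regions was not tested.

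Regions that were gained and kept were moderate in height. Measured at the summit, the median member had 14.3 times the genome mean at 10 months (quartiles 10.7 and 18.7) and 13.6 times at 20 months (quartiles 10.4 and 18.4). Regions with a peak at all ages stood higher, at 23.2 and 24.4 times, and regions seen at 1 later age alone stood lower, at 10.3 times for 10 months only and 9.19 times for 20 months only. Read numbers could be worked out for all 17304 at both ages. In reads, the median member had 32 at its 10-month summit and 34 at its 20-month summit. The lowest member summit had 10 reads at either age, and the highest had 191 reads at 10 months and 212 at 20 months.

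**Figure D1:**
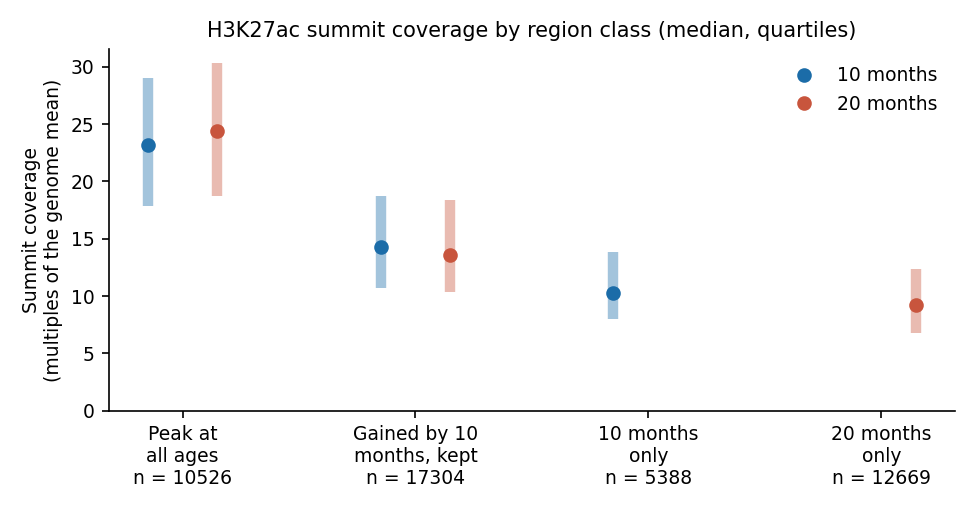
Summit coverage in multiples of the genome mean for 4 classes of autosomal regions, at 10 months (blue) and 20 months (red). Points are medians over regions and bars span the quartiles, with 1 library per age; the gained-and-kept regions (14.3 and 13.6) sit between regions with a peak at all ages (23.2 and 24.4) and those seen at 1 later age (10.3 and 9.19).

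The strongest peaks of the older muscles mostly had a 2-month peak as well. Among the 1000 regions with the highest summits, 48 at 10 months and 25 at 20 months were gained and kept, whereas 948 and 952 had a peak at all ages. When the 10-month regions were ranked by summit coverage, the median member lay at percentile 42.5, and at 20 months at percentile 47.3. Among regions with peaks at both later ages, 62.2% lacked a 2-month peak. That share was 96.3% (95.5 to 97.0) in the decile of regions with the lowest mean coverage at 10 and 20 months, 71.2% in decile 5, and 7.49% (6.54 to 8.53) in decile 10, the highest.

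The members were also set against the 2-month calling limit. Of the members, 2.40% at 10 months and 2.18% at 20 months had summits below 6.34 times the genome mean, the level of the weakest 2-month peak. However, regions with a peak at all ages also had lower multiples at 2 months, and their median rise from 2 months was 1.95-fold to 10 months and 2.08-fold to 20 months. A region that rose by just those amounts would have needed 12.4 times the genome mean at 10 months and 13.2 times at 20 months to reach the 2-month limit. Below these levels lay 36.9% of the members at 10 months and 47.3% at 20 months, and 8496 members (49.1%) were above them at both ages. These shares depend on taking the single weakest 2-month summit as the limit. They also depend on a rise measured only where a 2-month peak was called. That choice favours high 2-month summits, so the rise may be too small for the members and the levels too low. With the limit set 1.5 times higher, 73.2% of the members lay below at 10 months and 80.9% at 20 months. With lists cut to the same length of 17884 peaks by smallest q, 5364 regions were gained and kept, and 5363 of them overlapped a region of the full set, which is 31.0% of the full set.

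**Figure D2:**
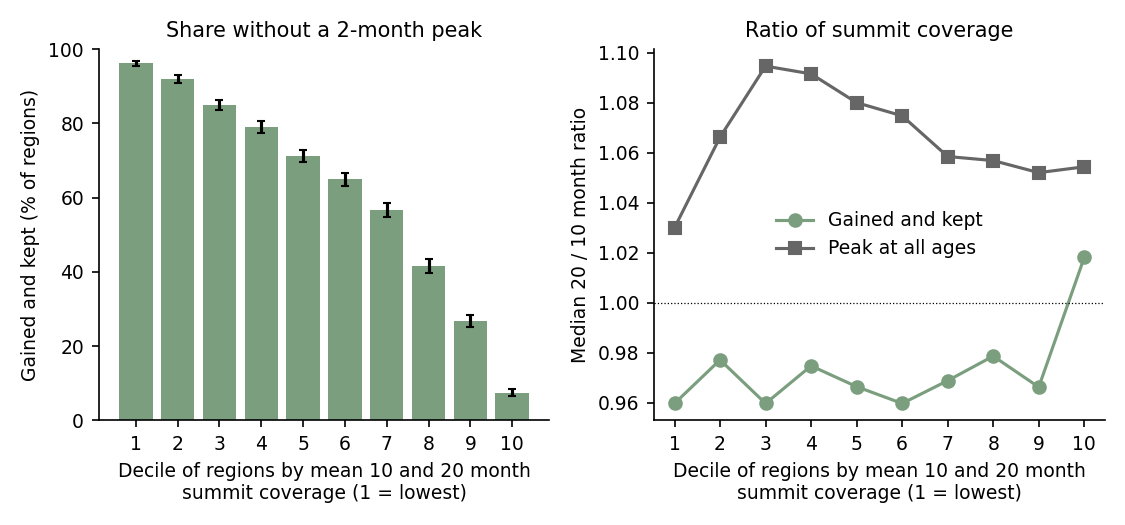
Autosomal regions with peaks at both 10 and 20 months, divided into deciles by their mean summit coverage at these ages. Left, the percentage without a 2-month peak, with exact 95% intervals, which falls from 96.3% to 7.49%; right, the median ratio of 20-month to 10-month coverage (no error shown), below 1 for gained-and-kept regions in deciles 1 to 9 and above 1 in every decile for regions with a peak at all ages.

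Peaks of the later ages overlap or touch within a member by the way members were chosen, so their shared position is a description. The median merged region was 502 bp wide (quartiles 386 and 674), the longest was 2124 bp, and together the regions covered 9.74 Mb. Exactly 1 peak was called at each later age in 93.2% of the regions. The highest summits of the 2 ages lay a median of 64 bp apart, and 84.5% of the pairs were within 200 bp. The 20-month peak covered a median of 84.1% of the bases of the 10-month peak, and the 10-month peak covered 87.6% of the bases of the 20-month peak. The median length covered by peaks was 410 bp at 10 months and 405 bp at 20 months.

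Between 10 and 20 months the level of the gained regions hardly moved on the scale of the genome mean. The median ratio of 20-month to 10-month coverage was 0.966, with quartiles of 0.841 and 1.11, and 20 months was the higher age in 43.7%. Where a peak was present at all ages, the ratio had a median of 1.06 and was above 1 in 62.9%. Scaled to the reads of each library instead (RPM), the ratios were 0.774 for the gained regions and 0.851 for those with a peak at all ages, so the gained regions had the lower ratio on either scale, but the direction of the regions with a peak at all ages depended on the scale. The 2 scales differ because the genome mean takes in the fragment length, which was 222 bp at 10 months and 178 bp at 20 months. RPM leaves it out, although summit reads come from the same kind of pileup. The scales therefore differ by the same factor at every region, and the lower ratios in RPM carry that factor.

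Over the genome mean, few single regions differed between the later ages beyond counting error, whereas in RPM more were lower at 20 months. The exact interval of the ratio excluded 1 upward in 125 members (0.722%), where the share over all regions with both peaks was 1.70%, and downward in 204 members (1.18%), against 0.938% of all. In RPM, 8 members were higher, where the share over all such regions was 0.0898%, and 2119 (12.2%) were lower, where it was 11.4%. Across the 17304 members the coverage of the later ages had a Spearman correlation of 0.856, a description over regions of the same 2 libraries. The ratio stayed within 1.5-fold in either direction for 93.6% of the members over the genome mean and for 76.4% in RPM.

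**Figure D3:**
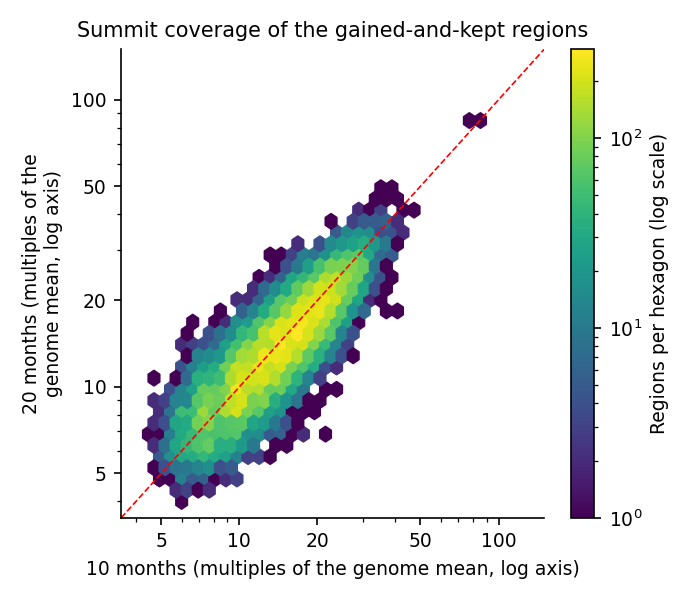
Summit coverage of the 17304 gained-and-kept regions at 10 months (x axis) and 20 months (y axis), in multiples of the genome mean on log axes; the color gives the number of regions in a hexagon and the dashed line marks equal coverage. The regions scatter around the line, with quartiles of 10.7 and 18.7 times at 10 months, and few lie above 50 times.

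Among members with at least 20 reads at both ages, the region at chr1:184212173-184212904 (mm9, as all peak positions here) rose from 21 reads at 10 months to 51 at 20 months, a ratio of 2.18 over the genome mean (1.29 to 3.81). At chr4:107837905-107838435 the reads went from 22 to 53, and at chr1:53353407-53353827 from 30 to 69, for ratios of 2.16 and 2.06. Those 3 intervals also excluded 1 in RPM. The largest declines were at chr13:67710928-67711520, from 51 reads to 25 (ratio 0.439, 0.261 to 0.722), at chr2:179985739-179986131, from 42 to 21 (0.448), and at chr2:154178855-154180018, from 89 to 45 (0.453). These 6 were picked as the extremes, so their intervals are a description.

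Of the 10 highest members, 4 stood together and the others singly. The region at chr11:3092397-3094164 had 191 reads at 10 months and 212 at 20 months, or 85.2 and 84.7 times the genome mean. It lay at the end of a stretch from chr11:3044565 that held 4 of the 10 highest members, all with a local background of 10.7 to 15.5 times the genome mean. The second highest, at chr18:90771482-90772031, had 172 and 206 reads over a background of 3.01 and 2.90 times. The nearest 2-month peak was 91.5 kb away. No mm9 sequence was used, so it was not checked whether repeats or assembly edges lie at these high sites. The next, at chr11:115274739-115275116, had 85 and 122 reads. In all, 100 members (0.578%) had a background above 10 times the genome mean at both ages, and without them the median ratio was again 0.966.

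The 5 longest members had 18.3 to 25.9 times the genome mean at 10 months, 4 of them above the members' upper quartile of 18.7. The longest, at chr5:113315153-113317276, consisted of 2 peaks at each age with highest summits of 55 and 70 reads. The next, at chr4:95043871-95045949, had 41 and 42 reads and lay 105 kb from the nearest 2-month peak. The other 3 spanned 1836 to 2001 bp and had 45 to 63 reads at either age.

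The weakest members and the weakest 2-month calls show where the boundary ran. The members with the smallest −log10 q at their weaker age had 33 and 22 reads (chr8:129127343-129127821), 19 and 15 reads (chr10:39170233-39170706), and 14 and 10 reads (chr7:113121117-113121417) at 10 and 20 months, and their 20-month −log10 q was 2.02 to 2.09. Just outside were 3 regions with a peak at all ages whose 2-month peaks had 8 or 9 reads and a −log10 q of 2.13 to 2.25. At 10 months these 3 had 31, 43, and 51 reads, beside a median of 32 and an upper quartile of 42 for the members.

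Local background was higher around the gained regions than around other regions of the same height. The median background of the members was 2.95 times the genome mean at 10 months and 2.81 at 20 months, below the 4.09 and 4.02 of the higher regions with a peak at all ages. Within most deciles of regions by coverage the order at 10 months turned. In decile 7, for example, the 10-month background was 5.26 times the genome mean for members and 3.75 for regions with a peak at all ages, and members had the higher value in deciles 1 to 9. In decile 10 the values were 5.68 and 6.08. The length covered by 10-month peaks in decile 7 had a median of 479 bp for members and 579 bp for regions with a peak at all ages.

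Gained regions had 2-month peaks nearby more often than regions seen at 1 later age did. A 2-month peak stood within 10 kb of 30.8% of them (30.1 to 31.5), compared with 24.4% (23.6 to 25.1) of the regions seen at 20 months only and 23.4% (22.3 to 24.6) of those at 10 months only. Within 1 kb the shares were 18.3%, 11.8%, and 9.52%. The median distance to the nearest 2-month peak was 26.2 kb for the gained regions, 34.9 kb at 20 months only, and 36.6 kb at 10 months only. At 1 and 10 kb the interval of the gained regions overlapped neither of the others. However, neighbouring regions of 1 library are not independent, the classes also differ in height, and the difference was not tested.

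**Figure D4:**
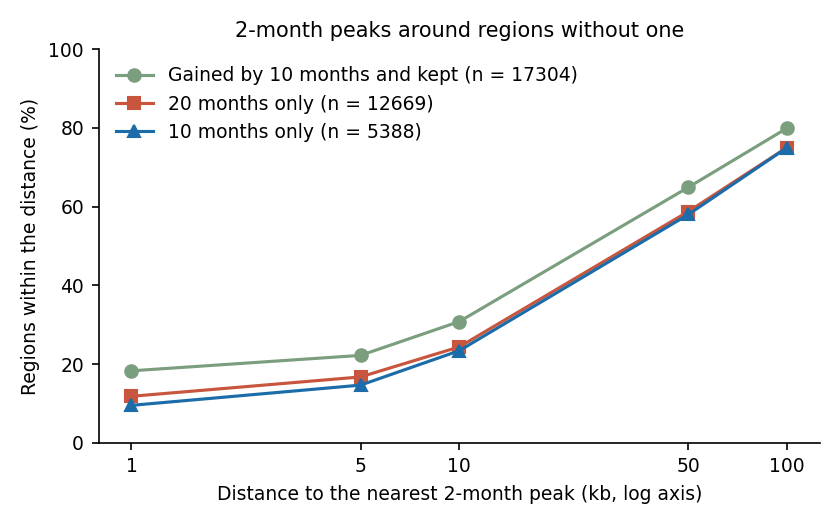
Cumulative percentage of regions without a 2-month peak of their own that lie within 1, 5, 10, 50, or 100 kb (log axis) of a 2-month peak, for 3 classes. Gained-and-kept regions lie above both other classes at each distance, with 18.3% at 1 kb and 80.0% at 100 kb.

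Height went with this distance. The 3166 members within 1 kb of a 2-month peak had a median of 17.8 times the genome mean at 10 months and 17.6 at 20 months. The values were 16.5 and 16.0 for the 2164 members at 1 to 10 kb, 13.4 and 12.8 for the 8505 at 10 to 100 kb, and 12.0 and 11.6 for the 3469 farther away. The ratio of 20 to 10 months was 0.995 in the nearest group and 0.955 in the farthest. Local background also fell with distance, from 3.63 to 2.38 times the genome mean between these groups at 10 months, and its part in the heights was not tested.

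Some members lay near one another and others alone. Another member lay within 10 kb of 43.9% of them, and a region with a peak at all ages within 10 kb of 24.8%. Neither a 2-month peak nor another member was within 10 kb of 6649 members (38.4%). Chained at this distance, with no 2-month peak starting between neighbours, 6896 members formed 3073 runs of at least 2. Only 30 runs held 5 or more. The run with the most members, 8 regions at chr6:24476996-24505690, had summits of 14.3 to 25.0 times the genome mean at 10 months and 12.4 to 28.0 times at 20 months, and the nearest 2-month peak was 14.7 kb from it. A run of 6 at chr19:41680690-41704123 lay 123 kb from any 2-month peak and had medians of 19.6 and 17.2 times. A run of 5 at chr1:137948595-137974343 lay 268 kb away, with medians of 22.7 and 22.8 times.

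Every autosome held such regions. Of the regions with peaks at both later ages, those without a 2-month peak made up between 55.7% on chromosome 7 and 68.6% on chromosome 10. Among 1073 bins of 1 Mb with at least 10 such regions, the median share was 62.5% (quartiles 53.1 and 72.7), 10 bins held members alone, and 0 bins held no member. The bin with the most members, 45 of 80 regions, was chr10:80000001-81000000.

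ECM genes code for the collagens, laminins, and glycoproteins that surround myofibers, for the integrins that bind them, and for the proteases and inhibitors that turn them over. A list of 84 such genes with mm9 positions, from the study's supplement, was used here, and 83 of them lie on autosomes. Within 100 kb of a transcription start site (TSS) on the list lay 184 members, at 52 of the 83 genes, each member counted for its nearest gene on the list. This was 1.06% of all members (0.916 to 1.23), beside 1.33% (1.12 to 1.57) of the regions with a peak at all ages, 1.14% (0.959 to 1.34) of those at 20 months only, and 0.891% (0.658 to 1.18) of those at 10 months only. Of the regions seen at 2 months only, 1.31% (0.973 to 1.73) lay as near. Differences between these shares were not tested, and the gained regions had the second lowest share of the 5 classes. Other genes not on the list may lie nearer to a region than the gene it was counted for.

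Of the 184, 76 were upstream of the gene, 67 downstream, 25 in the gene body, and 16 within 2.5 kb of the TSS. Their median summits were 13.4 times the genome mean at 10 months and 13.6 times at 20 months, and 88 of them were higher at 20 months, against 29 in RPM. The interval of the ratio excluded 1 at 1 region upward and 1 downward, where the shares over all regions were 1.70% and 0.938%. The first, 41.2 kb upstream of Itgb4, an integrin subunit of hemidesmosomes, rose from 22 reads to 43 (ratio 1.75, 1.02 to 3.07). The second, in the body of Adamts2, a protease that trims procollagen, went from 50 reads to 35 (0.627, 0.395 to 0.985). In RPM 0 were higher and 18 lower, where the shares over all regions were 0.0898% and 11.4%.

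At 9 of the 16 genes with a member within 2.5 kb of the TSS there was no 2-month peak in that window. These were Col1a1, Ecm1, Itga4, Itgb3, Lama2, Postn, Thbs3, Vcan, and Vtn. For the 4 of them with the member closest to the TSS and an entry in the RefSeq promoter table, the 250 bases before the start are shown. Only at Lama2 did the member reach upstream of the TSS from within the gene, and at Thbs3 it lay upstream. The members of Ecm1 and Itga4 lay inside the gene, so the stretches shown for them, and every motif match marked, were outside the gained region by the mm9 starts. The sequences come from RefSeq on GRCm38.p6, not mm9, run from 5′ to 3′ along the gene's strand, and have letters in capitals where they match a searched motif. The gene models of the 2 builds differ in length by 0 bp for Itga4, 11 bp for Thbs3, 250 bp for Lama2, and 307 bp for Ecm1, so the starts of the last pair may not be the same.
Ecm1 (chr3:95739570-95739819, minus strand): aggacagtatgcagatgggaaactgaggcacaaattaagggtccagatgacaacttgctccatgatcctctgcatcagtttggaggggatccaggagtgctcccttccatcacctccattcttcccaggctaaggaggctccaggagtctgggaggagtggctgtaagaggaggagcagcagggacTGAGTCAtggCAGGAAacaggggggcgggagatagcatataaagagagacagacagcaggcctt
Itga4 (chr2:79255176-79255425, plus strand): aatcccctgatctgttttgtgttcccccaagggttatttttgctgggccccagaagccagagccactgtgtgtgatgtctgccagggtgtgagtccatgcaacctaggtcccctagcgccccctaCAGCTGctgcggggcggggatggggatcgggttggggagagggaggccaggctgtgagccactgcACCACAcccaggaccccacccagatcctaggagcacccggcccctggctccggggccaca
Lama2 (chr10:27616943-27617192, minus strand): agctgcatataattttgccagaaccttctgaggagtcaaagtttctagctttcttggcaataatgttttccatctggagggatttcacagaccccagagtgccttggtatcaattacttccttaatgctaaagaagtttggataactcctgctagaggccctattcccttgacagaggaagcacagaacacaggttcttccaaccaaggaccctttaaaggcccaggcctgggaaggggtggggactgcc
Thbs3 (chr3:89214930-89215179, plus strand): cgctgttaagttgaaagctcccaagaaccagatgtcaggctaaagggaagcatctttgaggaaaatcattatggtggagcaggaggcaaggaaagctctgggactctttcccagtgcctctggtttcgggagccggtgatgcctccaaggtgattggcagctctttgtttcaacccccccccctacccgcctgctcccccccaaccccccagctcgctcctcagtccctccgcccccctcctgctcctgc

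The motifs were searched on both strands. The Ecm1 stretch held TGANTCA (AP-1) beginning at −64 and CAGGAA (ETS) at −54, and the Itga4 stretch held CAGCTG (the E-box of myogenic factors) at −125 and TGTGGT (RUNX, here on the opposite strand) at −60, counted from the start. Among 32851 RefSeq promoter stretches of the same length, 6.75% held the AP-1 motif, 25.7% the ETS motif, 13.0% the E-box, and 14.0% the RUNX motif. The Lama2 and Thbs3 stretches held none of these nor GGAATG (TEAD, in 12.6% of stretches), GTAAACA (FoxO, 3.17%), or the longer MEF2, SRF, glucocorticoid receptor, and NF1 motifs, which were searched too. The stretches had 0 to 6 CpG pairs, beside a median of 6 over all stretches, and the Lama2 stretch had 0. A match of letters is not evidence of binding.

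Col1a1 encodes the α1 chain of type I collagen, the main fibrillar collagen of muscle connective tissue. Its member, at chr11:94797642-94797983, began 104 bp inside the gene and had 26 reads at 10 months and 27 at 20 months, or 11.6 and 10.8 times the genome mean. The nearest 2-month peak was 8.15 kb away. The ratio was 0.930 (0.522 to 1.66), so the 2 ages differed by less than counting error.

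Lama2 encodes the α2 chain of laminin-211, the laminin of the myofiber basement membrane. Its member, chr10:27336296-27336965, was the only one of the 184 that covered a TSS. It had 31 reads at 10 months and 40 at 20 months (13.8 and 16.0 times the genome mean, ratio 1.16, 0.705 to 1.91). No region with a 2-month peak lay within 100 kb of the TSS, and the nearest 2-month peak was 457 kb from the member. Lama2 had 3 members in its gene body and 4 within 100 kb counted for it.

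Itga4, the α4 integrin subunit of leukocyte and endothelial adhesion, had a long member, chr2:79095815-79097351, starting 232 bp inside the gene. It had 30 reads at 10 months and 42 at 20 months (13.4 and 16.8 times, ratio 1.25, 0.766 to 2.08), and the nearest 2-month peak was 378 kb away. Thbs3, a thrombospondin of the matrix, had the highest of these 9, chr3:89017451-89018925, which ended 183 bp before the TSS. It had 53 and 55 reads (23.6 and 22.0 times, ratio 0.929, 0.626 to 1.38). Ecm1 encodes a secreted matrix glycoprotein. Its member, chr3:95543217-95543479, was 13 bp inside the gene and had 20 and 27 reads (8.92 and 10.8 times, ratio 1.21, 0.653 to 2.27).

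The other 4 were low. The member of Itgb3, the β3 integrin subunit, had 17 and 23 reads, that of Vtn (vitronectin, a ligand of that integrin) 19 and 25, that of Vcan (versican, a large proteoglycan) 16 and 25, and that of Postn (periostin, a matricellular protein of fibroblasts) 13 and 18 at 10 and 20 months. All 4 had more reads at 20 months, with ratios of 1.18 to 1.40 over the genome mean, but the intervals of all 4 included 1. In RPM the ratios were 0.945 to 1.12, and only that of Vcan was above 1. The 9 promoter members were set against the levels of 12.4 and 13.2 times the genome mean described above. These levels rest on the rise of regions with a peak at all ages and may be too low for members. At both ages 3 of the 9, those of Itga4, Lama2, and Thbs3, were above them. The other 6 were below at both.

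At the remaining 7 genes, Adamts5, Emilin1, Lamb2, Lamc1, Mmp14, Mmp15, and Timp3, a 2-month peak lay in the same window, and the nearest 2-month peak was 0.102 to 0.523 kb from the member. These members stood beside a promoter that already had a peak at 2 months. The highest was that of Lamc1, the γ1 chain of most laminins, with 70 reads at 10 months and 66 at 20 months (31.2 and 26.4 times). The lowest at 10 months was that of Mmp14, a membrane-bound collagenase, with 21 reads, and it had 34 at 20 months (ratio 1.45, 0.818 to 2.63).

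Emilin1, an elastin-associated glycoprotein, had the most members within 100 kb, 12 in all. Their summits ranged from 10.3 to 27.6 times the genome mean at 10 months and from 8.79 to 30.0 times at 20 months, and 2 of the 12 were higher at 20 months. Some of the 12 lay less than 1 kb apart, so counts of members depend on how signal is split into peaks. Thbs3 had 10 members, Sparc, a collagen-binding matricellular protein, 9, and Lamc1 8. Itgb2 and Itgal, whose products pair as the leukocyte integrin LFA-1, had 7 each, and so did Icam1, which codes for its ligand. None of the members of Itgb2, Itgal, or Icam1 lay in the gene body or within 2.5 kb of the TSS. Members made up 53.8%, 36.8%, and 77.8% of the regions with both later peaks counted for them, where the share over all such regions was 62.2%. Mmp11, Itgb4, Lamb3, and Spp1, the gene of osteopontin, had 6 each. Each of these genes except Spp1 also had regions with a peak at all ages counted for it, 12 for Itgal and 9 for Thbs3. All 6 members of Spp1 were higher at 20 months than at 10 months over the genome mean, with ratios of 1.03 to 1.29, and each interval included 1. In RPM only 1 of the 6 was higher, with ratios of 0.826 to 1.03.

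**Figure D5:**
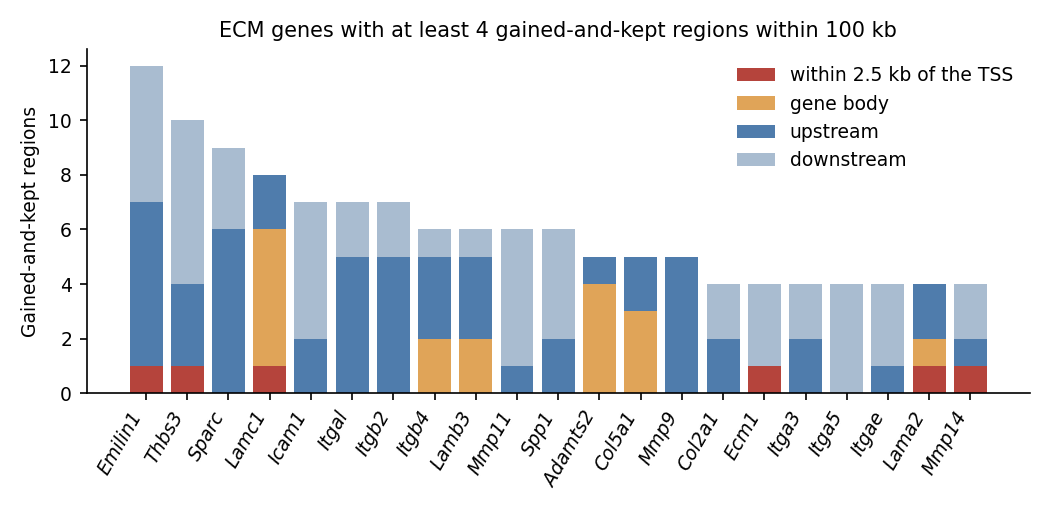
Number of gained-and-kept regions within 100 kb of the TSS for the 21 ECM genes with at least 4, each region counted for its nearest ECM gene. Colors give the place of the region relative to the gene; Emilin1 has 12, and the regions of Lamc1, Adamts2, and Col5a1 lie mostly within the gene body.

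Several ECM genes had members along the gene itself. The Adamts2 body held 6, Lamc1 5, Cdh4 (R-cadherin) 5, and Col5a1, Lama2, and Timp3 3 each. In Adamts2 and Col5a1, the α1 chain of the type V collagen that nucleates collagen fibrils, no region with a peak at all ages lay in the body, and no 2-month peak within 100 kb of the TSS. The 5 members within 100 kb of the Adamts2 TSS had 12.5 to 22.3 times the genome mean at 10 months and 12.4 to 17.6 times at 20 months, and 1 of them was higher at 20 months. The 5 of Col5a1 had 9.81 to 17.4 times and 9.19 to 14.8 times, and again 1 was higher. Timp3 codes for an inhibitor of metalloproteases bound to the matrix. Its 3 members, at 18.7 to 21.0 times at 10 months and 16.4 to 21.2 times at 20 months, stood beside 2 regions in the body that had a peak at all ages.

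In all, 12 of the genes with a member had no 2-month peak within 100 kb. Beside Adamts2, Col5a1, Lama2, Itga4, Vcan, and Postn, these were Cdh1, the epithelial cadherin, Fn1, the fibronectin gene, Thbs2, Itgax, Mmp8, and Sgce, a sarcoglycan. Fn1 had 2 members, at 7.14 and 12.9 times the genome mean at 10 months and 8.39 and 13.2 times at 20 months. The single member of Itgax, the αX integrin subunit of dendritic cells and macrophages, was higher, at 29.4 and 26.4 times.

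By family, integrins had members at 11 of 13 genes (40 regions) and laminins at 5 of 6 (22). Matrix proteases had them at 11 of 16 (31), and matrix glycoproteins and proteoglycans at 11 of 17 (52). Collagens had them at 4 of 8 (12), adhesion molecules and their partners at 7 of 18 (20), and protease inhibitors at both genes (5). The families had median 10-month summits of 11.6 to 18.7 times the genome mean, with the glycoproteins lowest and the inhibitors highest. Median ratios of 20 to 10 months lay between 0.896 for laminins and 1.04 for matrix proteases. Members made up 52.6% of the regions with both later peaks near integrin genes, 53.7% near laminin genes, and 58.5% near protease genes. The share was 62.7% near glycoprotein genes, 66.7% near collagen genes, 58.8% near adhesion genes, and lowest, at 38.5%, near the protease inhibitor genes. Near all 83 genes it was 56.8%, where the share over all such autosomal regions was 62.2%. These families hold few regions each, and differences between them were not tested.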

How the data were processed

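H3K27ac ChIP-seq of TA muscle was analysed from 3 deposited peak lists, 1 per age. According to the submitters' processing notes the reads were aligned to mm9 with Bowtie2 and peaks were called per library with MACS2 2.1.0. The study's methods speak of inputs for public data sets and of IgG as a negative control in ChIP. Whether either entered the calling of these peaks is not stated. The lists hold, as deposited by the authors, peak positions, a score, the ratio (fold) of summit pileup to background, the −log10 p and −log10 q values, and the summit position.

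Whole summit reads and the background were solved from the fold and the −log10 p (tolerance 0.001), which was tested on simulated data. The genome mean is the smallest background in a list, and the fragment length its smallest peak width. Reads of a library are the genome mean times the genome size preset over the fragment length. A single peak (1) in each of the later lists could not be solved, which affected no member. Peak lists keep only called peaks, so a region without a peak has no level.

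Members and gene lists were chosen with earlier results of these data known. Named regions were the 10 highest, the 5 longest, the 3 largest and 3 smallest ratios, and the 3 nearest each side of the threshold. Named ECM genes were the 10 with the most members (a tie with Spp1 at 6 was kept), all with a member within 2.5 kb of the TSS, and all with 3 or more in the gene body. Genes listed for having no 2-month peak within 100 kb were chosen after their values were seen. Intervals are at the 95% level and cover counting error only, with the Clopper-Pearson method for shares and the exact conditional binomial method for ratios. With 1 library per age no test was made. Sequence features of the peaks were not analysed because no mm9 sequence was used here. The tools were scipy 1.17.1, pandas 2.3.3, numpy 2.4.6, and matplotlib 3.10.9 under Python 3.11.15.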

Additional observations from a re-analysis of the deposited data

Results flagged for a closer look

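The regions described above are autosomal. On chromosome X, 526 regions had peaks at 10 and 20 months and none at 2 months, or 88.3% of the 596 with peaks at both later ages, against 62.2% on the autosomes. Their median summits were 11.6 times the genome mean at 10 months and 12.0 times at 20 months. Conversely, 472 of the 554 chromosome X regions with a 2-month peak (85.2%) had no later peak, against 23.6% on the autosomes, and their median 2-month summit was 15.9 times the genome mean beside 9.52 times for the autosomal regions seen at 2 months only. On chromosome Y, 75 of 76 regions with a 2-month peak had no later peak. These chromosomes lie outside the comparisons, there is no control library among the samples, and no difference between chromosomes was tested. They were picked out because signal appeared there that the comparisons do not use.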

How the results depend on the processing

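Of 25 alternatives, 16 kept the value within the set bounds, 9 moved it, and 0 reversed a direction. Counts and shares have no direction, so for them a reversal could not occur. The bound was 1.5-fold either way for counts, and the 95% interval of the main value for shares and ratios. The number of gained-and-kept regions, 17304, fell to 9324 with the 50% of each list of smallest q and to 5364 with lists of equal length. In an alternative chosen after seeing the data, it fell to 8496. This kept only regions above the levels of 12.4 and 13.2 times the genome mean at 10 and 20 months. The number ranged from 11974 to 18335 under the other 6. Among them was merging within 1 kb (12476), which kept 80.9% of the members in a region of the same pattern. Of the 9324 regions, 6280 overlapped a member. The median ratio of 0.966 became 0.774 in RPM and 0.993 with the smallest q. The 52 ECM genes became 28 with equal lists and 43 to 54 otherwise. The share near a 2-month peak, 30.8% within 10 kb, was 22.2% within 5 kb, 64.9% within 50 kb, and 38.3% with equal lists. The median coverage of members over that of regions with a peak at all ages was 0.615 at 10 months and 0.557 at 20 months and could not move in RPM, since both classes share a library. Leaving out regions of high background and those within 10 kb of a 2-month peak were also chosen after seeing the data. No replicate could be left out, because each age has 1 library. No paired analysis was possible because the ages share fewer than 2 replicate numbers and no result comes from a test. The weakest 2-month call had 8 reads, so a missing peak is no measure of absence.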
